A study of Mus musculus with 24 samples.

Results

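The 9 genes described here encode the core subunits of cohesin, the ring-shaped complex that holds sister chromatids together. They were the SMC genes *Smc1b*, *Smc1a* and *Smc3*, the kleisin genes *Rec8*, *Rad21l* and *Rad21*, and the STAG genes *Stag3*, *Stag1* and *Stag2*. They were taken by symbol from count tables of mouse testis RNA, in which they were 9 of 24456 genes, and all 9 were among the 17170 genes that passed a filter on low counts. The RNA came from testes of male pups on postnatal days 20, 22, 24 and 26, either wild type (WT) or with both copies of *Atad2* knocked out (KO). *Atad2* encodes a chromatin protein with an AAA ATPase domain and a bromodomain, and the series followed transcription without it as the germ cells that have passed through meiosis first appear. At each of days 20 and 22 there were 4 WT and 4 KO libraries, and at each of days 24 and 26 there were 2 WT and 2 KO libraries, 24 in all. The KO pups carried on both copies a *lacZ* cassette that is spliced to the early exons of *Atad2*, and the next exon and the *neo* cassette had been removed by Cre driven from the *CMV* promoter, so the gene is altered in every cell of the animal and not in the testis alone. The study calls the samples of a group biological replicates, but the strain and the litters are not given in the sources used here. Nothing ties a library to a single pup, so p-values measure the spread between these libraries. The labels of the libraries join genotype, day and replicate number, so that WT_d20_2 is a WT library of day 20. For day 20 the methods of the study name fewer libraries than are labelled, the sources do not say which were left out, and all the labelled ones were used here.

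In dividing somatic cells the cohesin ring is built from SMC1A, SMC3 and the kleisin RAD21, which closes the ring and is the part that separase cuts, and STAG1 or STAG2 binds the kleisin. Germ cells that enter meiosis add subunits of their own. SMC1B takes the place of SMC1A, REC8 or RAD21L that of RAD21, and STAG3 that of STAG1 and STAG2, whereas SMC3 is shared by both kinds of ring. REC8 rings carry cohesion through the meiotic divisions, RAD21L is known from the chromosome axes of prophase spermatocytes, and STAG3 is needed by both. In the first wave of spermatogenesis spermatocytes come before round spermatids and these before elongating spermatids, so the make-up of the testis changes with the day.

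The genes were placed on mouse build mm10 with the GENCODE M21 annotation. *Smc1b* is at chr15:85064689-85131964 on the minus strand and *Rad21* at chr15:51962240-51991747 on the same strand, 26.9 Mb and 6.1 Mb from *Atad2*. *Smc1a* (chrX:152016428-152062694, plus strand) and *Stag2* (chrX:42149317-42277185, plus strand) are on the X chromosome, which is silenced in pachytene spermatocytes. *Rec8* is at chr14:55618037-55625395 and *Stag3* at chr5:138280240-138312393, both on the plus strand. *Rad21l* is at chr2:151645404-151668533 on the minus strand, *Smc3* at chr19:53600398-53645833 and *Stag1* at chr9:100597798-100959375, the last pair on the plus strand. None of the 9 overlaps another gene listed in the count tables.

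RefSeq promoters of build GRCm38.p6, which run from 250 bases before the start site to 50 after it, were matched for 7 of the 9 genes. *Rad21* and *Stag2* had no match. The RefSeq start site behind a promoter was not always the start of the gene in GENCODE given above. It lay 45650 bases within the gene for *Stag1*, 269 bases for *Stag3* and, on the same side, 129 bases for *Rec8*, and 7 bases or fewer from the GENCODE start for the other 4. The promoters of the 4 meiosis-specific genes are shown because the transcripts of these genes took different courses between day 20 and day 26. Capitals mark TTCCCGC, an E2F-type motif, and TCTCGCG, each searched on both strands, and a match is a description of letters and not a site of binding. Both were chosen after the promoters had been read. They are given 5′ to 3′ on the strand of the gene, *Smc1b* from chr15:85131908-85132207 (minus), *Stag3* from chr5:138280259-138280558 (plus), *Rec8* from chr14:55617916-55618215 (plus) and *Rad21l* from chr2:151668484-151668783 (minus).
Smc1b: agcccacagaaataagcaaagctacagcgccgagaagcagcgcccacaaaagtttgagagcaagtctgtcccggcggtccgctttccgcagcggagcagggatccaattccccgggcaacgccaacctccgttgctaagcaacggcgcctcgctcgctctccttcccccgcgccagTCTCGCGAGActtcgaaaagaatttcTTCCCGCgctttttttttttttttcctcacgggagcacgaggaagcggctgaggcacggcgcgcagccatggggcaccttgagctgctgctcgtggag
Stag3: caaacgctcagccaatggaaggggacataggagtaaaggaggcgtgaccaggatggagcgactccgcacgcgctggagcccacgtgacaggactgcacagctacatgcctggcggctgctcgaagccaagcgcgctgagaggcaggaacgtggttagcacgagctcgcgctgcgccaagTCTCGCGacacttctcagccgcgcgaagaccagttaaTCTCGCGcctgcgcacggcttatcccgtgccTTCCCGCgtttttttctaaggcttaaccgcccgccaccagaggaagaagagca
Rec8: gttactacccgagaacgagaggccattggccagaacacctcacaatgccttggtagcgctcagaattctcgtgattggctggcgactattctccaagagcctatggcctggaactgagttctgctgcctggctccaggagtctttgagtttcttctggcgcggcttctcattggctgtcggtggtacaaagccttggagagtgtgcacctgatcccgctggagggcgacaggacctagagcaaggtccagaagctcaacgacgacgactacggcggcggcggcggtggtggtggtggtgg
Rad21l: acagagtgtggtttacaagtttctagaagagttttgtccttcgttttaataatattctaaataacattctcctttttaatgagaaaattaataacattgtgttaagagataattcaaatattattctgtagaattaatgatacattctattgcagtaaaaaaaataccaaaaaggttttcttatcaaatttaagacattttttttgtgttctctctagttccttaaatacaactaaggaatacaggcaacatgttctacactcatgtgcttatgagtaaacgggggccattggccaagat

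The promoters of *Smc1b* and *Stag3* held both motifs. In *Smc1b*, TTCCCGC began 48 bases before the start site, and TCTCGCG began 74 bases before it and, overlapping and on the other strand, 71 bases before it. In *Stag3*, TTCCCGC began 3 bases before the start site and TCTCGCG 71 and 34 bases before it. TTCCCGC also stood in the promoters of *Stag1*, 16 bases before the start, and of *Smc1a*, 38 bases after it, all counted from the RefSeq start sites, so 4 of the 7 promoters held it, against 4.6% of all 32851 RefSeq mouse promoters. TCTCGCG was in 2 of the 7, against 2.56% of all. Because both motifs were chosen after these promoters had been read, the comparison with all promoters is not a test of enrichment. The letters CNCCTCAG, a motif of the meiotic inducer STRA8, were in 0 of the 7 and in 7.94% of all, and the cyclic AMP response element TGACGTCA was in 0 of the 7 and in 1.79% of all. The MYB-type motif TAACNG was in *Stag3* alone, at 2 places, and in 23.3% of all. The *Rad21l* promoter had 29% GC and 2 CpG, against 58.3% to 73.7% GC and 18 to 43 CpG in the other 6.

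The libraries held 10709667 to 19491935 read pairs assigned to genes, and 3 counts corresponded to 0.153 to 0.316 CPM (the gene's count in proportion to the assigned pairs of its library, which were scaled by the TMM factors of edgeR). *Atad2* itself lay between 30.8 and 53 CPM in the KO libraries and between 76.1 and 171 CPM in the WT libraries, with no overlap on any day, and its mean KO effect over the 4 days was -1.37 (log2, SE 0.112, adjusted p = 1.23e-07, edgeR quasi-likelihood test). It was called lower at days 20, 22 and 24 but not at day 26 (log2 -1.25, adjusted p = 0.0628). Counts per gene do not separate the deleted exon. No gene of 10 lists of testis cell type markers was at 0 in any group. The protocol in the labels also speaks of purified spermatogenic fractions, whereas the summed Sertoli cell markers of these libraries were at 844 to 2020 CPM. The library WT_d20_2 stood apart, with 3.26% of its assigned pairs from mitochondrial rRNA and 13.7% of all pairs aligned to several places, and it had a chi-square of its counts per gene (about 1 for sampling noise alone) of 94.2 to 129 with the other WT libraries of its day, against 14 to 28.5 among those. KO_d22_4 also stood apart, with the lowest shares of mitochondrial rRNA (0.17%) and of pairs aligned to several places (4.74%, 5.98% or more in the others) and a chi-square per gene of 45.1 to 53 with the other KO libraries of its day (19.6 to 40.3 among those). The values that these libraries moved most are also given without them.

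At least 66 pairs lay behind every value of *Rec8*, 80 behind every value of *Rad21l*, 342 behind every value of *Smc1a* and 1009 or more behind each of the other 6 genes. Divided by exon length, the levels at day 20 in WT ran from 107 CPM per kb for *Smc1b* and 76 for *Stag3* down to 3.51 for *Rec8*. Between them came *Rad21* at 39.3, *Smc3* at 25.4, *Stag2* at 18.8, *Stag1* at 18.2, *Rad21l* at 10.8 and *Smc1a* at 7.07 CPM per kb. Only *Stag3* against *Rad21* and *Smc1a* against *Rec8* were neighbours in this order whose library values did not overlap. At day 26 in WT the order opened with *Smc1b* (97.6 CPM per kb) and *Stag3* (88.9), which overlapped, and went on with *Rad21* (32.3), *Smc3* (22.6), *Rec8* (16.4) and *Stag2* (15.7), of which *Rec8* and *Stag2* overlapped. *Stag1* (13.2), *Smc1a* (4.59) and *Rad21l* (4.11) closed it with no overlap. *Rec8* had moved from the last place to the fifth, and *Rad21l* was now last. In KO at day 26 *Stag3* (108 CPM per kb) stood above *Smc1b* (105). The order depended on the length taken for a gene. With the longest transcript in place of the union of exons, *Stag1* was above *Smc3* at days 20, 22 and 24 in both genotypes (34.6 and 29 CPM per kb at day 20 in WT). *Stag3* was then above *Smc1b* in WT at day 22 (94.1 and 91.1) and day 26 (109 and 97.6), and in KO at day 22 (105 and 95.7), day 24 (97.7 and 94.3) and day 26 (133 and 105). *Rec8* was then the sixth at day 26 in WT (22 CPM per kb), behind *Stag1*.

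**Figure D1:**
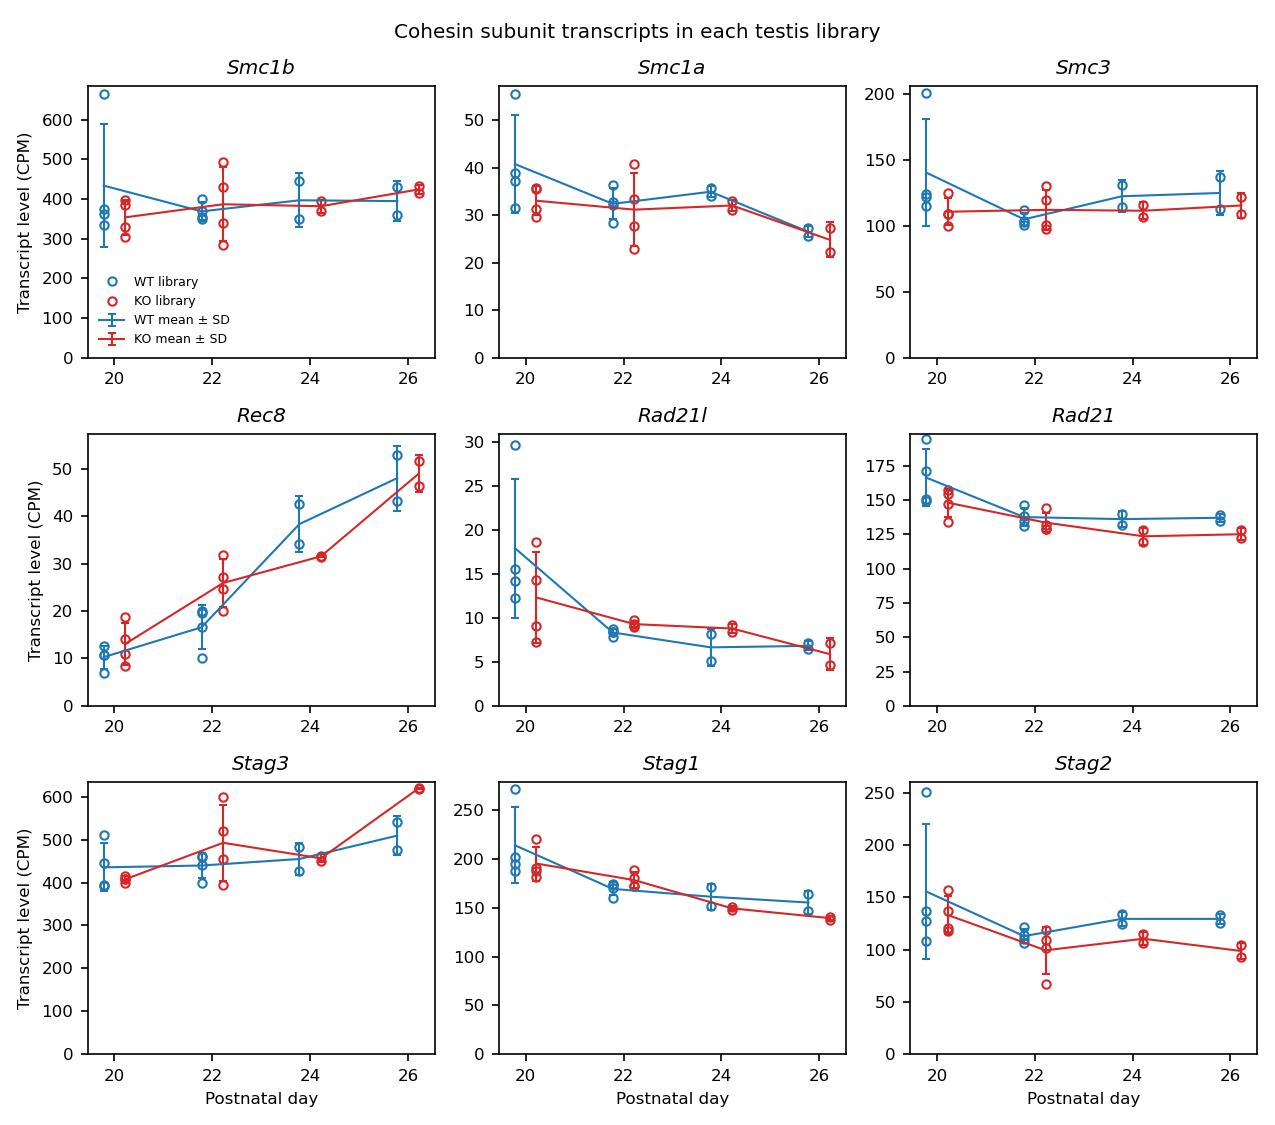
Level of each of the 9 genes (vertical axis, CPM scaled by TMM factors, from 0) against postnatal day (horizontal axis) in WT (blue) and KO (red), with 1 circle per library and lines and bars for the mean ± SD. *Rec8* climbs from between 6.95 and 18.8 CPM at day 20 to between 43.2 and 52.9 at day 26 in both genotypes, *Rad21l* goes down, and the highest WT circle at day 20 in the panels of *Smc1b*, *Smc1a*, *Smc3*, *Rad21l*, *Rad21*, *Stag1* and *Stag2* is WT_d20_2.

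Age was the larger contrast for these genes. Between day 20 and day 26 the edgeR quasi-likelihood test with Benjamini-Hochberg adjustment over all 17170 genes called 5 of the 9 in WT, 1 higher and 4 lower at day 26. Over all genes it called 42.5%, made up of 24.4% of all genes higher and 18.1% of all genes lower. In KO it called 4 of the 9, with 2 higher and 2 lower, against 52.2% of all genes, 27.2% higher and 24.9% lower. Neither count of members stood far from those shares. The median change of the 9 was -0.26 in WT and -0.24 in KO (log2), against -0.04 and -0.07 over all genes. Without WT_d20_2 the WT median was 0.01, and that of all genes -0.07. The libraries of day 26 and day 20 did not overlap for 5 of the 9 in WT and 8 of the 9 in KO, where 50.4% and 70% of all genes were apart in the same way. Whole testes were measured, so fewer cells of a type and less RNA per cell cannot be told apart in any of these values. The summed level of 7 round spermatid markers went from between 24.1 and 74.3 CPM to between 721 and 748 in WT over the same days, and from between 59.2 and 164 to between 778 and 847 in KO. That of 6 elongating spermatid markers went from between 0.632 and 4.46 CPM to between 1340 and 2390 in WT and from between 3.27 and 58.6 to between 2390 and 2480 in KO. The sum of 7 pachytene markers went from between 2250 and 3090 CPM to between 5100 and 5500 in WT and from between 2960 and 3630 to between 6500 and 6530 in KO. That of 6 early meiotic markers went from between 1200 and 2310 CPM to between 994 and 1090 in WT and from between 1180 and 1760 to between 870 and 925 in KO. In WT the sum of 6 Sertoli cell markers went from between 1400 and 2020 CPM to between 844 and 981, that of 5 peritubular markers from between 593 and 1040 to between 363 and 436 and that of 6 spermatogonial markers from between 250 and 306 to between 162 and 175. The sum of 6 Leydig cell markers went from between 250 and 355 CPM to between 1080 and 1760. In KO the Sertoli cell sums went from between 1250 and 1420 CPM to between 1080 and 1090, the peritubular from between 509 and 658 to between 270 and 312, the spermatogonial from between 217 and 270 to 148 and the Leydig from between 261 and 658 to between 862 and 981. The part of these shifts in the changes of the cohesin genes was not tested.

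*Rec8*, the kleisin that keeps sister centromeres joined through the first meiotic division, showed the widest change with age. In WT the day 20 libraries gave 12.7, 6.95, 10.7 and 10.8 CPM, the day 22 libraries 20, 10, 19.6 and 16.7, the day 24 libraries 42.5 and 34.2, and the day 26 libraries 43.2 and 52.9. Every WT library of days 24 and 26 was above every WT library of days 20 and 22. The KO libraries gave 10.9, 8.37, 14.2 and 18.8 CPM at day 20. On the later days they gave 20, 31.9, 24.6 and 27.2 (day 22), 31.7 and 31.4 (day 24), and 46.3 and 51.7 (day 26). The KO libraries of day 20 lay below all other KO libraries and those of day 26 above them. From day 20 to day 26 *Rec8* rose 4.64-fold in WT (log2 2.21, SE 0.268, adjusted p = 1.05e-06, edgeR) and 3.75-fold in KO (log2 1.91, SE 0.266, adjusted p = 1.03e-05). Both calls were kept in all 24 fits that left out 1 library, with log2 values of 2.03 to 2.34 in WT and 1.74 to 2.13 in KO.

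*Rad21l*, the kleisin of prophase chromosome axes, went the other way. Its WT values at day 20 were 15.6, 29.6, 12.3 and 14.2 CPM, the highest of them in WT_d20_2, and those at day 26 were 7.18 and 6.46. In KO it had 14.3, 18.6, 9.05 and 7.31 CPM at day 20 and 7.16 and 4.59 at day 26. Day 26 lay below day 20 in both genotypes, in KO by a narrow margin. Most of the WT difference was already present at day 22, when the 4 libraries gave 8.38, 8.78, 7.86 and 8.34 CPM. *Rad21l* fell 2.61-fold in WT (log2 -1.38, SE 0.344, adjusted p = 0.00281, edgeR) and 2.1-fold in KO (log2 -1.07, SE 0.342, adjusted p = 0.0126). Without WT_d20_2 the WT value was -1.08 and stayed called, whereas without KO_d26_2 the KO value was -0.80 and was no longer called (adjusted p = 0.164).

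*Rad21*, the general kleisin, changed little. It had 149, 194, 171 and 151 CPM at day 20 and 135 and 139 at day 26 in WT, and 134, 157, 147 and 154 against 122 and 128 in KO. The days did not overlap in either genotype, and the differences were 1.22-fold in WT (log2 -0.28, SE 0.112, adjusted p = 0.047, edgeR) and 1.18-fold in KO (log2 -0.24, SE 0.112, adjusted p = 0.0731). The WT call was at the edge of the threshold. It was lost in 11 of the 24 fits that left out 1 library, with log2 values of -0.27 to -0.31 and adjusted p from 0.0521 to 0.183 (without KO_d20_2, KO_d20_4, WT_d20_3, KO_d22_2, KO_d22_3, WT_d22_4, KO_d24_1, KO_d24_2, WT_d24_1, WT_d26_1 or WT_d26_2), and in DESeq2 (adjusted p = 0.0544). Other scaling by RLE factors (adjusted p = 0.0887), no filter on low counts (0.102) and a fit on days 20 and 26 alone (0.17) lost it too. In KO it was called without WT_d20_2 (adjusted p = 0.0312) or KO_d20_1 (adjusted p = 0.0442).

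The courses of the 3 kleisins changed the make-up of the family, here the share of each in the summed level per kb of exon. *Rec8* held 6.8% ± 2.27 of it at day 20 in WT (SD, n = 4), 13% ± 3.53 at day 22 (n = 4), 26.5% ± 2.95 at day 24 (n = 2) and 30.9% ± 2.79 at day 26 (n = 2). In KO its shares were 9.57% ± 3.38, 19.2% ± 3.57, 23.8% ± 0.485 and 33.5% ± 1.9. The library shares of day 26, 28.9% to 34.8%, were all above those of day 20, 3.58% to 13.5%. *Rad21l* went from 19.6% ± 5.34 to 7.81% ± 0.994 in WT and from 15.7% ± 5.99 to 7.14% ± 2.36 in KO, and *Rad21* from 73.6% ± 3.92 to 61.3% ± 1.8 in WT and from 74.7% ± 2.84 to 59.4% ± 0.453 in KO. *Rad21* thus stayed the most abundant kleisin transcript of the whole testis on every day. The ratio of *Rec8* to *Rad21l* per kb had a median of 0.445 at day 20 in WT, 1.23 at day 22, 3.32 at day 24 and 3.97 at day 26. In KO the medians were 0.618, 1.56, 2.03 and 4.82. At day 20 the ratio was under 1 in every WT library (0.133 to 0.493) but reached 1.45 in 1 KO library, KO_d20_4. At days 24 and 26 it was 1.94 or more in every library. These ratios were not tested, and a sum over the testis does not show which kleisin a given cell used.

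**Figure D2:**
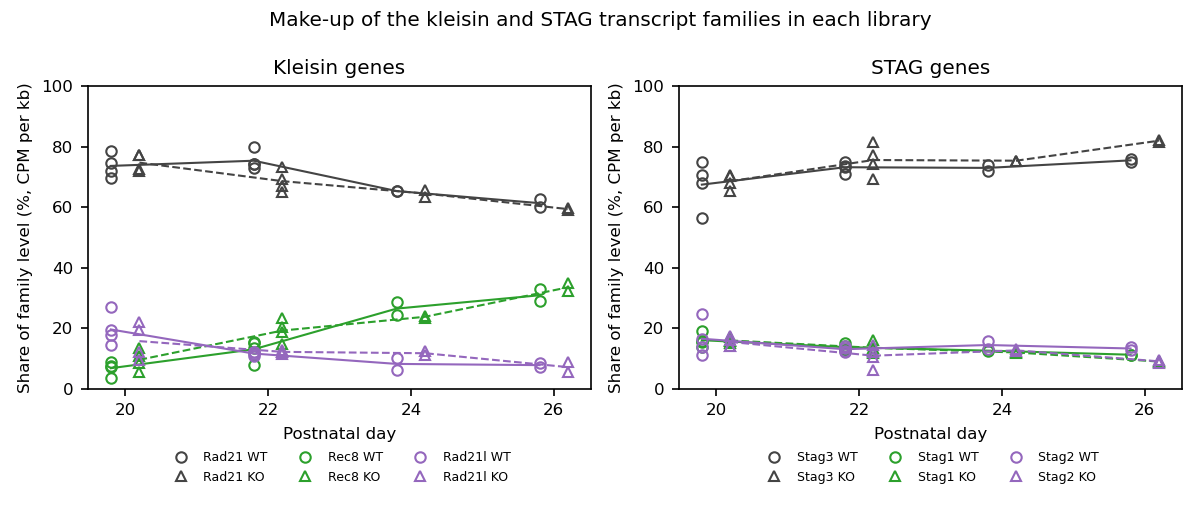
Share of each gene in the summed level (CPM per kb of exon) of the 3 kleisin genes (left) and the 3 STAG genes (right), in percent, against postnatal day, with 1 symbol per library (circles WT, triangles KO) and lines through the group means (solid WT, dashed KO). The share of *Rec8* passes that of *Rad21l* between day 20 and day 24 and reaches 30.9% in WT and 33.5% in KO at day 26, and *Stag3* makes up 56.3% to 82.3% of the STAG family.

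Among the STAG genes, *Stag3*, the partner of the meiotic kleisins, was the most abundant on every day. It had 510, 394, 392 and 446 CPM at day 20 and 477 and 542 at day 26 in WT, which overlapped. In KO it had 399, 408, 416 and 408 CPM at day 20 and 619 and 621 at day 26, which did not overlap. The change was 1.52-fold in KO (log2 0.60, SE 0.138, adjusted p = 0.00118, edgeR), a call kept in all 24 fits that left out 1 library, and 1.17-fold in WT (log2 0.23, SE 0.14, adjusted p = 0.199). Leaving out 1 library moved the WT value from 0.13 (without WT_d26_2) to 0.31 (without WT_d26_1), with 0.14 without WT_d20_2. The KO and WT changes themselves were not shown to differ, as given with the interaction test. The share of *Stag3* in the STAG family went from 67.4% ± 8 to 75.5% ± 0.624 in WT and from 68.6% ± 2.47 to 82% ± 0.405 in KO. The lowest share of day 20, 56.3%, was that of WT_d20_2.

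*Stag1*, one of the STAG subunits of general cohesin, had 195, 272, 188 and 202 CPM at day 20 and 147 and 164 at day 26 in WT, and 191, 221, 182 and 188 against 141 and 138 in KO. Day 26 was below day 20 in both genotypes without overlap. It fell 1.37-fold in WT (log2 -0.46, SE 0.131, adjusted p = 0.0078, edgeR) and 1.4-fold in KO (log2 -0.49, SE 0.131, adjusted p = 0.00399). The KO call was kept in all 24 fits that left out 1 library, and the WT call was lost only without WT_d26_1 (log2 -0.39, adjusted p = 0.0843). *Stag2*, the X-linked STAG gene, had 108, 251, 137 and 127 CPM at day 20 and 126 and 133 at day 26 in WT, and 137, 157, 121 and 118 against 93.4 and 104 in KO. The WT days overlapped and the KO days did not. Its changes did not pass the test in WT (log2 -0.26, SE 0.243) or KO (log2 -0.43, SE 0.245, adjusted p = 0.145). Without WT_d20_2, the library at 251 CPM, the WT value was 0.02, and the KO value, still -0.43, was called (adjusted p = 0.026), all groups sharing 1 estimate of the spread.

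Of the SMC genes, *Smc1a*, the general SMC1 gene on the X chromosome, had 31.5, 55.5, 37.2 and 38.9 CPM at day 20 and 25.7 and 27.3 at day 26 in WT. In KO it had 31.4, 29.6, 35.5 and 35.7 CPM at day 20 and 27.4 and 22.2 at day 26. Day 26 was lower without overlap in both genotypes. The change was called in WT (1.54-fold lower, log2 -0.62, SE 0.205, adjusted p = 0.019, edgeR) and not in KO (log2 -0.42, SE 0.204, adjusted p = 0.0919). The WT call was lost without either WT library of day 26 (log2 -0.59, adjusted p = 0.112 without WT_d26_1 and log2 -0.66, adjusted p = 0.0806 without WT_d26_2), and in KO *Smc1a* was called without WT_d20_2 (adjusted p = 0.0362).

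*Smc1b*, the meiotic SMC1, did not pass the test in either genotype. The WT libraries of day 20 gave 362, 666, 334 and 374 CPM and those of day 26 360 and 430, and the KO libraries 384, 398, 330 and 304 at day 20 and 433 and 416 at day 26. Apart from 666 CPM in WT_d20_2, all libraries of these days lay between 304 and 433 CPM. The WT days overlapped, whereas both KO libraries of day 26 were above the 4 of day 20. Its change was -0.14 in WT (95% interval of the fold 0.654 to 1.27) and 0.26 in KO (0.865 to 1.66), and without WT_d20_2 the WT value was 0.11. *Smc3*, which both kinds of ring share, had 122, 201, 115 and 124 CPM at day 20 and 113 and 137 at day 26 in WT, and 100, 125, 109 and 109 against 122 and 109 in KO. The days overlapped in both genotypes. The changes were -0.17 in WT (95% interval of the fold 0.687 to 1.15), or 0.01 without WT_d20_2, and 0.06 in KO (0.809 to 1.35). Per kb, the ratio of *Smc1b* to *Smc1a* had a median of 15 at day 20 and 21.2 at day 26 in WT, and 15.2 and 24.5 in KO. At day 26 its lowest value was 20 and at day 20 its highest was 19.2.

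**Figure D3:**
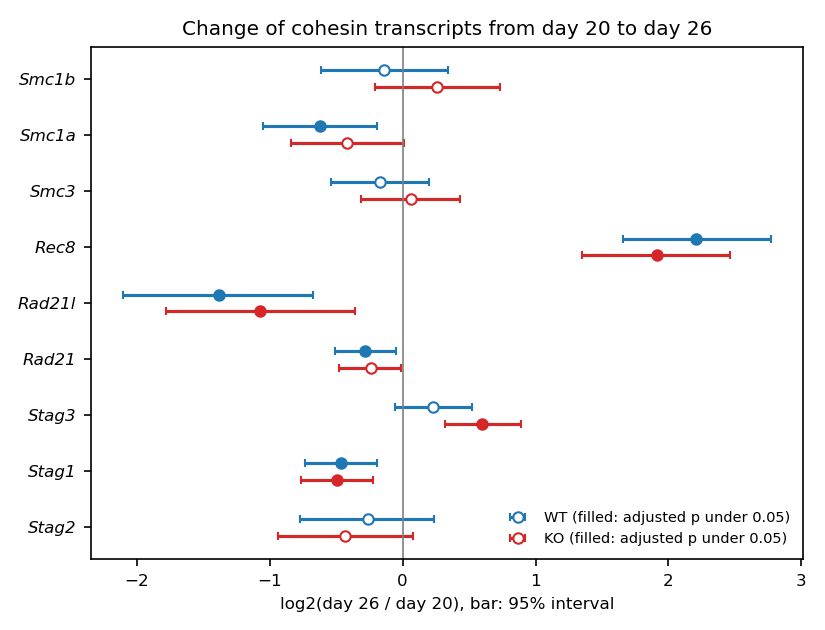
Change of each gene from day 20 to day 26 (horizontal axis, log2 of day 26 over day 20, with 95% intervals from the edgeR fit) in WT (blue) and KO (red), filled where the adjusted p was under 0.05. *Rec8* stands at 2.21 and 1.91 and *Rad21l* at -1.38 and -1.07, and the other genes lie between -0.62 and 0.60.

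The test of whether the change with age differed between the genotypes called 0 of the 9 genes and 0% of all genes in edgeR. At an unadjusted p under 0.05 edgeR counted 0 of the 9 and 1857 genes of all, and DESeq2 called 0 of the 9. *Stag3* had the lowest p of the 9, with a difference of 0.38 between the KO and WT changes (log2, SE 0.2, 95% interval -0.04 to 0.79, adjusted p = 0.53, edgeR). For *Rec8* the difference was -0.31 (95% interval -1.12 to 0.51) and for *Rad21l* 0.31 (-0.66 to 1.28), and both intervals reach a 2-fold difference. Without WT_d20_2 these differences were 0.46 for *Stag3*, -0.13 for *Rec8* and 0.01 for *Rad21l*, those of *Smc1b* and *Stag2* went from 0.40 to 0.16 and from -0.17 to -0.45, and 0 of the 9 were called.

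Between KO and WT on the same day, edgeR called 0 of the 9 genes at day 20, 22, 24 or 26. Over all genes the called shares were 3.34% (day 20), 2.51% (day 22), 0.0874% (day 24) and 0.0466% (day 26). At an unadjusted p under 0.05 it counted 1 of the 9 at day 20 (*Smc3*), 1 at day 22 (*Rec8*), and 0 on the later days. The same counts over all 17170 genes were 2141, 2505, 898 and 1979 in the order of the days. DESeq2 called 0 of the 9 on each day and counted 3, 1, 0 and 1 of them at an unadjusted p under 0.05. For the mean of the 4 daily effects edgeR called 0 of the 9 against 7.08% of all genes, with 2 at an unadjusted p under 0.05 (*Rad21* and *Stag2*) against 3982 of all genes. For the joint test of whether the KO effect changed between the days it called 0 of the 9 against 0.00582% of all genes, with 0 at an unadjusted p under 0.05 against 1556 of all genes. In DESeq2 0 of the 9 were called for the mean or the joint test, with 0 at an unadjusted p under 0.05. The mean effects ran from -0.25 for *Stag2* to 0.18 for *Rec8* (log2), and their 95% intervals together spanned 0.705 to 1.38 times the WT level. The KO and WT libraries did not overlap for 6 of the 9 at day 24 (5 lower in KO, 1 higher) and for 4 of the 9 at day 26 (3 lower, 1 higher). With 2 libraries per group this held for 44% of all genes at day 24 and for 59% at day 26, so neither count is a result about the members.

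*Rec8* had the largest fitted KO difference of a single day with all libraries in the fit. At day 22 the KO libraries gave 20 to 31.9 CPM and the WT libraries 10 to 20, and the libraries of replicate 1 were both at 20 CPM. KO was 1.56-fold higher (log2 0.64, SE 0.227, 95% interval 0.17 to 1.11), which did not pass the adjustment over all genes (adjusted p = 0.148, edgeR, and 0.0984 in DESeq2), and was 0.62 without KO_d22_4. It was 0.34 at day 20, -0.28 at day 24 and 0.03 at day 26. Leaving out 1 library moved the day 20 value from 0.11 (without KO_d20_4) to 0.50 (without KO_d20_2), with 0.18 without WT_d20_2, and the day 24 value from -0.41 (without WT_d24_2) to -0.11 (without WT_d24_1). Spermatid markers also differed between the genotypes on the first days. Called higher in KO were 5 of 7 round and 2 of 6 elongating spermatid markers at day 20 and 0 of 7 and 4 of 6 at day 22. Of the early meiotic markers 0 of 6 were called on either day, and 1 of 7 pachytene markers was called higher at day 20. At day 22, 1 of 4 endothelial markers was called lower and 1 of 6 Leydig cell markers higher in KO. Over all genes the called shares were 3.34% and 2.51%. The summed endothelial markers at day 22 were 24.4 to 50.5 CPM in KO and 57 to 64 in WT, and the peritubular 251 to 514 and 496 to 732. The summed elongating spermatid markers at day 22 were 41.6 to 349 CPM in KO and 17.6 to 40.8 in WT. At day 24, when *Rec8* was at -0.28, they were 518 to 1230 CPM in KO and 259 to 269 in WT, and at day 26 they were 2390 to 2480 in KO and 1340 to 2390 in WT, with no spermatid marker called on either day. The summed round spermatid markers were 163 to 440 CPM in KO and 127 to 189 in WT at day 22. They were 421 to 446 CPM in KO and 372 to 489 in WT at day 24, and 778 to 847 and 721 to 748 at day 26. The part of these markers in the value of *Rec8* was not tested.

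*Rad21l* differed by -0.53 at day 20 (SE 0.261), with values from -0.80 (without KO_d20_2) to -0.20 (without WT_d20_2) when 1 library was left out. The later differences were 0.16, 0.40 and -0.22 in the order of the days, none called, and the mean was -0.05, or 0.04 without WT_d20_2. The value of day 24 ran from 0.11 (without WT_d24_1) to 0.79 (without WT_d24_2). At day 22 its KO libraries, 9.02 to 9.72 CPM, lay just above the WT libraries, 7.86 to 8.78. *Rad21* had values of -0.17 (-0.10 without WT_d20_2), -0.05, -0.14 and -0.13 over the 4 days and a mean of -0.12 (SE 0.0553, adjusted p = 0.189, edgeR). Of the kleisins it had the narrowest intervals, 0.849 to 0.996 times the WT level for the mean.

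*Stag2* was below WT on all 4 days, by values of -0.22, -0.18, -0.22 and -0.39, with a mean of -0.25 (SE 0.12, adjusted p = 0.208, edgeR). The sign at day 20 rested on WT_d20_2, without which the value was 0.09 and the mean -0.17 (adjusted p = 0.18). The value of day 22 was -0.04 without KO_d22_4, which had 67.6 CPM against 102 to 119 in the other KO libraries of that day. At days 24 and 26 its KO libraries did not overlap the WT libraries, with 106 and 115 against 125 and 134 CPM and with 93.4 and 104 against 126 and 133 CPM. Fitted on the 4 libraries of day 26 alone, *Stag2* was called lower in KO (log2 -0.38, adjusted p = 0.0307), in a fit that called 12.8% of all genes. *Stag3* had values of -0.09 (-0.15 without WT_d20_2), 0.16 (0.06 without KO_d22_4), 0.00 and 0.28, and at day 26 its KO libraries, 619 and 621 CPM, were above the WT libraries, 477 and 542. *Stag1* had values of -0.13 (-0.01 without WT_d20_2), 0.07, -0.11 and -0.16, and a mean of -0.08 (-0.05 without it). None of these values of *Stag3* and *Stag1* passed the test.

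Among the SMC genes the day 20 values were -0.29 for *Smc1b*, -0.30 for *Smc1a* and -0.34 for *Smc3* (SE 0.145). Without WT_d20_2 they were -0.03, -0.13 and -0.14. The lower KO levels of day 20 therefore rested in large part on 1 WT library, in which all but *Rec8* and *Stag3* were at their highest of the 8 libraries of that day. On the later days the values of the 3 genes lay between -0.14 and 0.10, and without KO_d22_4 those of day 22 were 0.19, 0.07 and 0.14. The mean effects were -0.04 for *Smc1b* (95% interval of the fold 0.823 to 1.14), -0.14 for *Smc1a* (0.784 to 1.05) and -0.13 for *Smc3* (0.807 to 1.04), and without WT_d20_2 they were 0.03, -0.09 and -0.07.

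**Figure D4:**
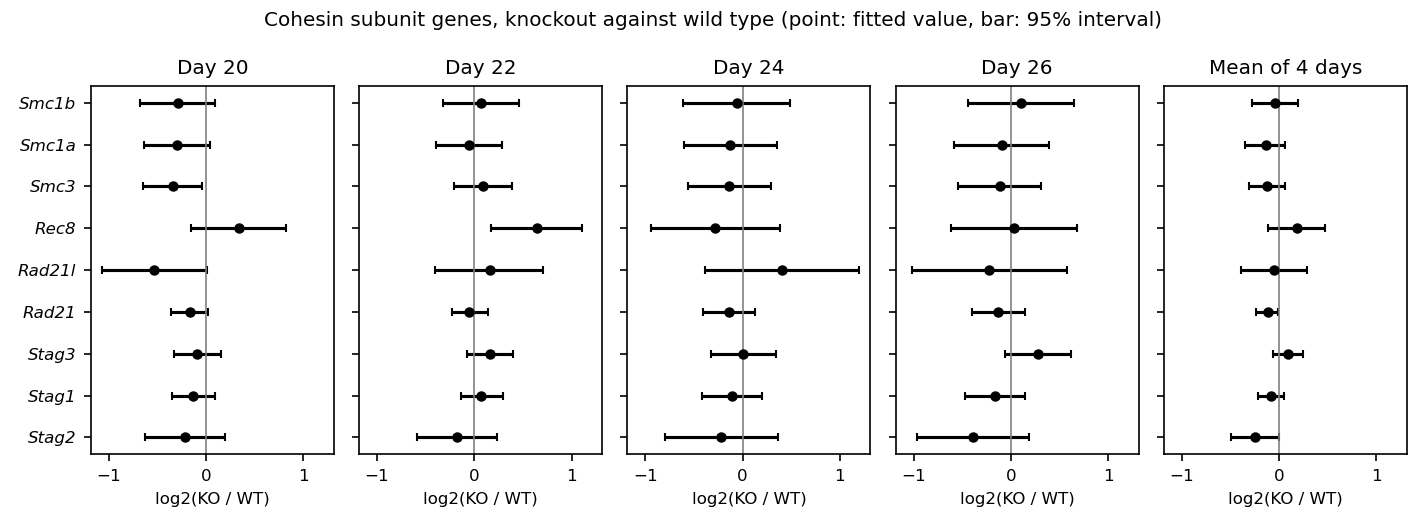
Difference between KO and WT for each gene (horizontal axis, log2 of KO over WT, with 95% intervals from the edgeR fit) on each of the 4 days and for the mean of the days. The intervals of the mean are the narrowest and run from -0.50 to 0.47 over the 9 genes, and of the single days only those of *Smc3* at day 20 and *Rec8* at day 22 leave out 0, with no adjustment for the number of genes.

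Of 16 genes that load, release, protect or cut cohesin or bound its loops, edgeR called 8 between day 20 and day 26 in WT, 3 higher and 5 lower, and 7 in KO, 3 higher and 4 lower, where it called 42.5% and 52.2% of all genes. *Nipbl*, which loads the ring onto chromatin, rose in both (log2 0.49 in WT and 0.61 in KO), from 906 ± 126 CPM (SD, n = 4) to 1270 ± 111 (n = 2) in WT. *Cdca5*, which encodes sororin and keeps rings closed, rose (0.71 and 0.70), as did *Espl1*, which encodes separase (0.77 and 0.75). *Esco2*, the acetyltransferase that locks cohesin in S phase, fell (-1.01 and -1.03), from 113 ± 55.5 to 55.9 ± 1.98 CPM in WT. *Sgol1*, a protector of centromeric cohesin, fell as well (-0.75 and -0.99), and so did the ring-bound regulator *Pds5b* (-0.69 and -0.52) and *Ctcfl*, the testis paralogue of the loop boundary factor CTCF (-0.61 and -0.67). *Pds5a* fell in WT (-0.51) and did not pass the test in KO (-0.37). The median change of the 16 was -0.36 in WT and -0.15 in KO, against -0.04 and -0.07 over all genes, and -0.17 in WT without WT_d20_2. Without that library the WT values of *Esco2* (-0.65, adjusted p = 0.0125) and *Pds5a* (-0.31, adjusted p = 0.017) were smaller and still called, and that of *Espl1* was 0.52. DESeq2 called 8 of the 16 in WT and 7 in KO, and 38.1% and 45.3% of the 19326 genes to which it gave an adjusted p. Several calls were lost where leaving out a library left 1 in a group of day 26, and over all genes the called share in WT was then 30.1% (without WT_d26_1) and 27% (without WT_d26_2). In WT this held without either library for *Esco2* (log2 -0.98 and -1.05), *Espl1* (0.78 and 0.76), *Pds5a* (-0.46 and -0.56) and *Ctcfl* (-0.46 and -0.78), with adjusted p from 0.06 to 0.228. Without WT_d26_2 it held for *Nipbl* (0.40, adjusted p = 0.0778) and *Sgol1* (-0.71, adjusted p = 0.0835). In KO it held for *Espl1* without either library (0.71 and 0.76, adjusted p = 0.0741 and 0.0602), *Esco2* without KO_d26_1 (-1.02, adjusted p = 0.0539), and *Pds5b* (-0.51, adjusted p = 0.0657) and *Ctcfl* (-0.53, adjusted p = 0.162) without KO_d26_2. *Ctcfl* was also lost without WT_d20_1 in WT (-0.51, adjusted p = 0.066) and without KO_d20_2 in KO (-0.57, adjusted p = 0.0531). Scaling to total counts lost *Espl1* in WT (0.0544) and *Cdca5* and *Espl1* in KO (0.0529 and 0.0832), and a fit on days 20 and 26 alone lost *Ctcfl* and *Pds5a* in WT (0.0649 and 0.0984) and *Pds5b* in KO (0.0696).

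Between the genotypes 1 of the 16 was called, *Ctcfl* at day 22, when 2.51% of all genes were (KO 6.6 ± 0.904 CPM, WT 4 ± 0.763 CPM), at n = 4 and SD as the error. Its ranges, 5.5 to 7.64 against 3.27 to 5.02 CPM, did not overlap. Its difference was 0.73 (log2, SE 0.181, adjusted p = 0.0355, edgeR), and it was lost without KO_d22_2, KO_d22_3, WT_d22_1, WT_d22_3 or WT_d22_4 (log2 0.64 to 0.77, adjusted p from 0.0589 to 0.161) and in a fit on day 22 alone (log2 0.74, adjusted p = 0.117). Of 14 genes of the related condensin and SMC5/6 complexes, edgeR called 0 between the genotypes on any day or for the mean, with 0 at an unadjusted p under 0.05 and 0 called by DESeq2, and between day 20 and day 26 it called 6 in WT (1 higher, 5 lower) and 3 in KO (1 higher, 2 lower), against the 42.5% and 52.2% of all genes.

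Across the 24 libraries, whose levels share the course of age, the genes whose log2 CPM ran closest to each member were named by Pearson r among the 17170 genes, as a description. For *Rec8* they were *Nrm* (r = 0.982), *Tesk2* (0.978) and *Lmntd2* (0.978), and for *Rad21l* *Eml5* (0.965), *Cyld* (0.949) and *Tpmt* (0.947). For *Stag1* the closest was *Pds5b* (0.971), itself a cohesin regulator, before *Clock* (0.967) and *Gm5595* (0.962). For *Stag3* they were *Mdm2* (0.935), *Cep120* (0.93) and *Ddx46* (0.927), for *Stag2* *Eif1ax* (0.943), *Mospd2* (0.927) and *Zfp763* (0.925), and for *Rad21* *Sos1* (0.93), *Rock2* (0.903) and *Jmy* (0.886). For the SMC genes they were *Rsrc2* (0.903), *Cep290* (0.893) and *Nemf* (0.885) for *Smc1b*, *Eif3a* (0.918), *Upf2* (0.903) and *Akap9* (0.885) for *Smc3*, and *Rars* (0.878), *5330426P16Rik* (0.861) and *ND1* (0.854) for *Smc1a*. Within the 9, *Smc1b* and *Smc3* had r = 0.82, whereas *Smc1b* and *Smc1a* had 0.46. *Rad21* and *Stag1* had r = 0.85, as did *Rad21l* and *Stag1*, and *Rec8* had -0.83 with both *Rad21l* and *Stag1*. WT_d20_2 bears on all of these values. In it *Smc1b*, *Smc1a*, *Smc3*, *Rad21l*, *Rad21*, *Stag1* and *Stag2* had their highest CPM of the 24 libraries, and *Rec8* its lowest.

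By the GENCODE starts, 3 of the 9 genes have a start site within 235 bases of that of a neighbour on the other strand. The start sites of *Smc1b* and *Ribc2* were 114 bases apart, those of *Smc1a* and *Ribc1* 133 bases and those of *Stag3* and *Gpc2* 235 bases (504 bases from the RefSeq start site of *Stag3*), and the counts were made with the strand. *Ribc1* and *Ribc2* are paralogues that encode proteins of the cilium. *Ribc1* rose from 2.72 ± 0.454 CPM (SD, n = 4) to 25.3 ± 5.62 (n = 2) in WT (log2 3.21, adjusted p = 6.22e-07, edgeR) and by 2.43 in KO, while *Smc1a* beside it was lower at day 26. *Ribc2* rose by 0.96 in WT (adjusted p = 0.000242) and 1.14 in KO, whereas *Smc1b* did not pass the test in either. *Gpc2*, which encodes a glypican, changed by -0.06 and -0.10 and was not called, whereas *Stag3* rose in KO.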

How the data were processed

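Ribosome-depleted, stranded total RNA libraries of 24 testis samples were sequenced as read pairs. The authors aligned the reads to mm10 with STAR 2.7.11b and counted pairs in exons with HTSeq, using the strand and discarding pairs with several alignments. Each deposited table holds the unnormalised counts of 1 library by gene symbol, with nothing pooled, and the gene models behind them are not given in the sources used here. Tallies of unassigned pairs, 53.7% to 69% of a table, entered neither library sizes nor tests. Only pairs wholly within exons of 1 gene were counted.

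Groups came from the labels. The study normalised with DESeq2 1.22.2 and tested with SARTools. Here DESeq2 (1.42.0) was an alternative. Counts were filtered (filterByExpr, minimum 10), scaled by TMM and fitted in edgeR 4.0.16 (limma 3.58.1, R 4.3.3) with robust quasi-likelihood over all 8 groups of genotype and day, since days 24 and 26 have 2 libraries per group. Tests were two-sided, adjusted by Benjamini-Hochberg over all 17170 genes, and called at an adjusted p under 0.05. The test of KO against WT at day 20 was tried on counts simulated with the fitted spread. That trial did not cover the groups of 2 libraries, the tests with age or the interaction. Levels per kb used the union of exons, and correlations used log2 CPM with a prior count of 2. No replicate pair agreed within sampling noise (chi-square per gene of 5.07 or more).

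All 9 members were named throughout, regulators where called (at most 5 per direction), and for each member the 3 genes of highest r. The members and lists were chosen with earlier results of these data known. Alternatives were other scalings, no filter, only the days compared, a replicate block, DESeq2, each library left out and another gene length.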

Additional observations from a re-analysis of the deposited data

Results flagged for a closer look

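Within the 36 groups of 4 libraries formed by the 9 genes, both genotypes and days 20 and 22, a single library lay far from the other 3 in 2 groups, and chance alone marks about 1 in 20 groups. Both were in WT_d20_2. *Smc1b* was at 666 CPM there and at 334 to 374 in the other WT libraries of day 20, and *Smc3* was at 201 CPM there and at 115 to 124 in the others. The gap to the nearest library was 0.88 of the whole range for *Smc1b* and 0.896 for *Smc3*. The same library held the highest shares of mitochondrial rRNA (3.26%) and of pairs with several alignments (13.7%). Its summed early meiotic markers, 2310 CPM, were above the 1200 to 1310 CPM of the other WT libraries of day 20. Its sums of pachytene (2250 CPM), round spermatid (24.1) and elongating spermatid markers (0.632) were below theirs (2510 to 3090, 58.1 to 74.3 and 0.925 to 4.46). The part of these values in its cohesin levels was not tested.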

How the results depend on the processing

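No member was called between KO and WT or in the interaction under other scalings, without the filter, with DESeq2, with the replicate block or without any 1 library. The exception was the fit on day 26 alone, with 1 call (*Stag2*, -0.38). The fit on the days compared gives no value for the mean and the joint test, which need all days. It called 3 members in WT with age (*Rad21* and *Stag1* were lost), against 34.1% of all genes. In KO, where it called 43.6% of all genes, it lost *Rad21l* (-1.03, adjusted p = 0.0639). Total counts without TMM moved the median change of all genes from -0.04 to -0.15 in WT and from -0.07 to -0.26 in KO, and called 7 members in KO (56.6% of all genes). Leaving out 1 library gave 2 (without WT_d26_1) to 5 calls with age in WT, with 3 without WT_d26_2, and 3 (without KO_d26_2) to 7 (without WT_d20_2) in KO. The shares of all genes moved the same way, to 30.1% without WT_d26_1 and 27% without WT_d26_2 in WT (42.5% with all) and to 33.4% without KO_d26_2 and 59.1% without WT_d20_2 in KO (52.2%). The cause was not tested. *Rec8* kept both calls with age under every alternative.

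Whether replicate numbers pair the samples is not given by the labels, and the check was mixed. Of 12 pairs 7 correlated above 0.1 (range -0.46 to 0.42), 3 of 4 at day 20, 0 of 4 at day 22 and all 4 of days 24 and 26, where the 2 pairs of a day mirror each other, and the same number of pairs, 7, correlated best with their own number. The numbers were therefore not used as pairs. With the replicate block *Stag2* was called with age in KO (-0.55, adjusted p = 0.0473), and no other member changed its call.

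Signs turned for *Rad21*, KO at day 22 (0.00 without the filter), *Rec8*, KO at day 26 (-0.04 with total counts), *Smc3*, KO with age (-0.13 with total counts), and, in the interaction, *Rad21* (-0.06 with total counts) and *Stag1* (0.02 with RLE factors, 0.00 with only the days compared, 0.02 in DESeq2). None of these was called. Signs also turned without 1 library. At day 20 this held for *Stag2* (-0.36 to 0.09). At day 22 it held for *Smc1b* (-0.07 to 0.19) and *Smc1a* (-0.21 to 0.07), and at day 24 for *Smc1b* (-0.20 to 0.13) and *Stag3* (-0.06 to 0.09). At day 26 it held for *Smc1b* (-0.01 to 0.24), *Smc1a* (-0.23 to 0.07), *Smc3* (-0.24 to 0.04), *Rec8* (-0.10 to 0.18) and *Rad21l* (-0.55 to 0.09), and in the mean for *Smc1b* (-0.08 to 0.03) and *Rad21l* (-0.13 to 0.06). With age it held for *Smc1b* (-0.27 to 0.11), *Smc3* (-0.32 to 0.01) and *Stag2* (-0.43 to 0.02) in WT and *Smc3* in KO (-0.03 to 0.12), and in the interaction for *Rad21l* (-0.01 to 0.62), *Rad21* (0.00 to 0.12), *Stag1* (-0.12 to 0.05) and *Stag2* (-0.45 to 0.00).

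With the longest transcript as length, the log2 ratio of *Smc1b* to *Smc1a* in WT was 3.60 at day 20 and 4.11 at day 26 (3.90 and 4.41 with the exon union), and at day 26 *Rec8* to *Rad21* was -0.66 (-0.99), *Rec8* to *Rad21l* 2.41 (1.99) and *Stag3* to the sum of *Stag1* and *Stag2* 1.24 (1.62). Over all genes, the fit on a single day called 5 at day 20 (573 with all days), 69 at day 22 (431) and 2104 at day 26 (8). DESeq2 called 888, 737, 37 and 138 on the 4 days (573, 431, 15 and 8), 264 in the joint test (1) and 211 in the interaction (0). The block called 9 at day 24 (15), 5 at day 26 (8), 14 in the joint test (1) and 90 in the interaction (0), and total counts called 30 at day 26 (8) and 0 in the joint test (1). *Rec8* and *Rad21l* had the fewest counts (66 and 80 at the lowest), and days 24 and 26 had 2 libraries per group.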
